A study of Mus musculus with 20 samples.

Results

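The nuclear exosome targeting (NEXT) complex is built from 3 proteins, and the genes that encode them, Zcchc8, Rbm7 and Mtrex, are described here. They were chosen by name, as 3 of the 55471 genes counted, and each was followed in its own gene counts and in the counts of its own promoter upstream transcript (PROMPT) region. ZCCHC8 is the scaffold of the complex, RBM7 binds RNA, and MTREX, also called MTR4, is the helicase that unwinds RNA for the nuclear exosome, the enzyme that degrades it. NEXT hands short-lived nuclear transcripts to the exosome, among them PROMPTs, which start upstream of a promoter and run away from the gene. MTREX also works outside NEXT, with the adaptor ZFC3H1 in the PAXT connection and with ZCCHC7 in the TRAMP complex.

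The study sequenced the total RNA of SIMS, a cell line of the mouse salivary gland, with and without CRISPR/Cas9 knockout (KO) of Zcchc8. There were 20 libraries in 5 groups of 4: unedited wild type, Btbd7 KO cells as the negative control, and Zcchc8 KO clones 1, 2 and 3. The wild-type cells carry no stated edit, the Btbd7 KO line is edited at another gene, and the Zcchc8 KO groups are 3 single clones, so each edited group is 1 cell line. All were grown in the same medium with fetal bovine serum. The labels do not say whether the 4 libraries of a line came from separate cultures, so p-values measure only the spread between these libraries, which may be technical. The guides and the edited sequences are not analysed here.

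Gene counts summed to between 6833258 and 17771804 per library. Clone 1 was the most shallow group, at 6833258 to 7683444, and wild type the deepest, at 13876944 to 17771804. PROMPT counts summed to 1569548 to 3966608 in 19 libraries, because the PROMPT table did not hold wild-type replicate 1. That library also stood apart in the gene table, with 14245 genes detected against 17615 to 20889 in the 16 libraries of the edited lines. Summed epithelial markers (7 genes) stood at 3105 to 5048 CPM, which are counts per 1000000 gene counts of the library, with gene totals adjusted by TMM factors. Of 5 acinar markers Aqp5 was high, at a mean of 178 CPM in wild type, whereas Smr2 was at 0 in every library and Amy1 reached at most 0.613 CPM. Fibroblast, immune and endothelial lists summed to at most 28.1, 12.99 and 1.02 CPM. In the control line Btbd7 itself was lower than in wild type by 1.03 on the log2 scale (SE 0.06, edgeR adjusted p = 2.797e-12).

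All 3 genes are protein coding and lie on the minus strand of GRCm38. Zcchc8 (ENSMUSG00000029427.11) spans chromosome 5, positions 123698294 to 123721100, with 5251 exonic bases. No annotated gene lies in the 5 kb upstream of its start, and the nearest upstream gene, Rsrc2, is 7326 bases away. Rbm7 (ENSMUSG00000042396.10) spans chromosome 9, positions 48488701 to 48495299, with 4941 exonic bases. Its start site is 143 bases from that of Gm5617, a small coding gene on the plus strand. Mtrex (ENSMUSG00000016018.4) spans chromosome 13, positions 112867418 to 112927398, with 6404 exonic bases. It shares a divergent promoter with Dhx29, an RNA helicase of translation initiation, whose start site lies 56 bases away. The far end of Mtrex overlaps the end of Plpp1 on the other strand.

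The sequences directly upstream of the start sites are shown because a PROMPT arises there, and because they differ in how much room lies before the next gene. They come from RefSeq (GRCm38.p6), run 5′ to 3′ on the strand of the gene, and end at the base before the RefSeq start site. Each runs back 250 bases or to the annotated start of the divergent neighbour. GENCODE places the starts of Zcchc8 and Mtrex inside these stretches, at positions 123721100 and 112927398.
Zcchc8, chr5:123721045-123721294: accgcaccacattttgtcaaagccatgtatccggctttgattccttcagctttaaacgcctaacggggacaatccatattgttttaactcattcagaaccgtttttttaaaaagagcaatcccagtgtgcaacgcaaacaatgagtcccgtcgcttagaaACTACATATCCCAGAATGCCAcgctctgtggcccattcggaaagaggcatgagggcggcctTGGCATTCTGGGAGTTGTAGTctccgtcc
Rbm7, chr9:48495331-48495441: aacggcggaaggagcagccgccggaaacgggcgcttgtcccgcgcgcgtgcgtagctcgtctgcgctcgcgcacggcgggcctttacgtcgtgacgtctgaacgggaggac
Mtrex, chr13:112927381-112927453: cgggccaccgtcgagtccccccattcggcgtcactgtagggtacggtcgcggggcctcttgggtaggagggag
Capitals in the Zcchc8 sequence mark its longest inverted repeat with at most 2 differences, 2 copies of 21 bases on opposite strands with 40 bases between them. The letters common to both copies are ACTACANNTCCCAGAATGCCA, which contain the known site of the zinc finger factor ZNF143. The repeat was looked for after the sequence had been read. These letters occur on either strand in 4 of 32851 RefSeq promoter windows of 300 bases (0.0122%), and 1 window held 2 or more. The letters were taken from the Zcchc8 window, so it is 1 of the 4 and the 1 with 2 matches by construction. Only the full run of letters was matched, so these counts do not speak to shorter ZNF143 sites. The Rbm7 and Mtrex windows held no match, and none of the 3 windows held the TATA box letters TATAAA (in 13.6% of windows), CCAAT (37.4%), the polyadenylation signal AATAAA (19.6%) or the splice site letters GTAAGT (7.65%) on either strand. The 300-base windows of Zcchc8, Rbm7 and Mtrex held 14, 37 and 25 CG dinucleotides, against a median of 7. Fewer were held by 63.7%, 94.4% and 81.6% of all windows, so the count of Zcchc8 was common.

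Zcchc8, the edited gene, kept most of its RNA in 2 of the 3 knockout clones and lost most of it in clone 2. In wild type its level was 63.8, 61.6, 66.7 and 68.1 CPM in replicates 1 to 4. In Btbd7 KO it was 57.5, 61.1, 65.0 and 65.5 CPM. Clone 1 had 65.6, 60.3, 60.1 and 55.2 CPM, which overlapped both control groups. Clone 2 had 24.9, 21.9, 23.8 and 22.7 CPM, below every library of every other group. Clone 3 had 56.2, 60.6, 51.0 and 50.4 CPM, below all 4 wild-type libraries, while its highest value lay above the lowest of Btbd7 KO.

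Of the 15297 genes tested against wild type, 19.1%, 16.2% and 15.3% were called lower in clones 1, 2 and 3, and 15.7% were called in either direction in Btbd7 KO. Zcchc8 fell by 1.48 on the log2 scale in clone 2 (SE 0.08, edgeR adjusted p = 5.191e-13), a 2.80-fold lower level. It fell by 0.26 in clone 3 (SE 0.08, edgeR adjusted p = 0.0135). That call was lost without clone 3 replicate 3 (edgeR adjusted p = 0.0583), without clone 3 replicate 4 (0.0601) and under 4 of the other settings tried, with its direction kept in each. Clone 1 did not pass the test, at -0.11 (95% interval -0.27 to 0.05, edgeR adjusted p = 0.291). Btbd7 KO did not pass either, at -0.07 (95% interval -0.22 to 0.09, edgeR adjusted p = 0.622). The clones differed from each other in a joint test (edgeR adjusted p = 3.808e-12), which 28.5% of genes passed, and clone 2 lay below clone 1 by 1.37 (SE 0.08, edgeR adjusted p = 5.426e-12), where 10.2% of genes were called lower. Clone 3 minus clone 1 was -0.15 and did not pass (edgeR adjusted p = 0.268). Counts over the whole gene do not read the edited bases, so a level near wild type neither checks nor contradicts the knockout label of clones 1 and 3.

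**Figure D1:**
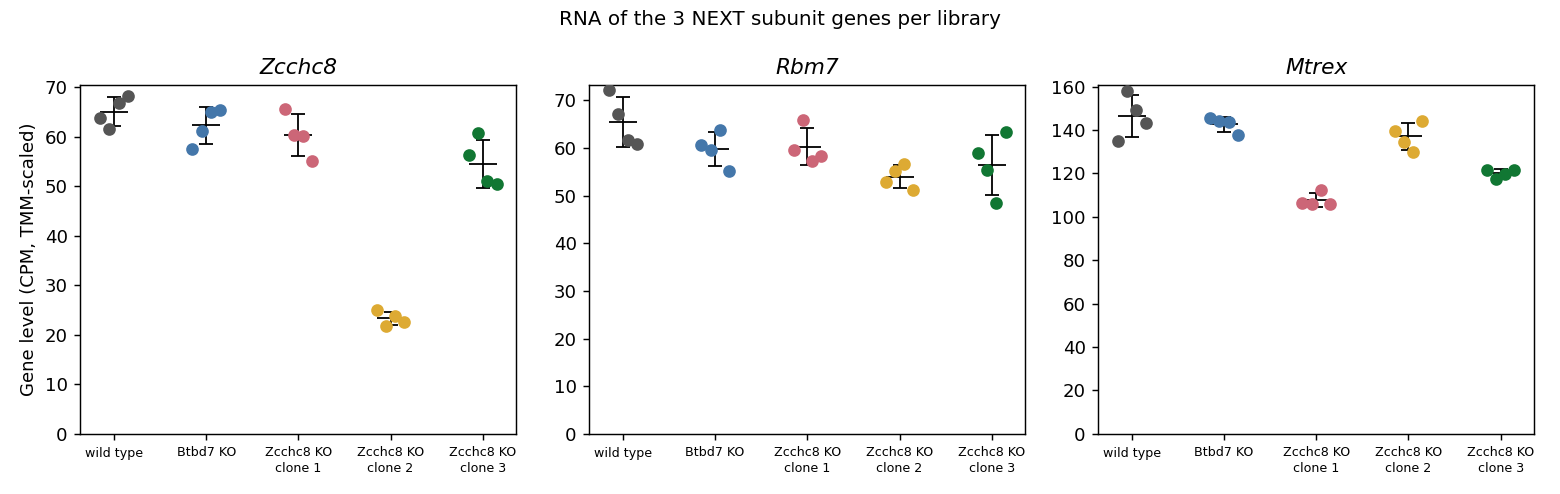
Gene level (CPM, TMM-scaled, linear axis from 0) of Zcchc8, Rbm7 and Mtrex in each of the 20 libraries, with a panel per gene. Points are libraries, long ticks the group means and bars 1 SD (n = 4). Zcchc8 in clone 2 stands at a mean of 23.3 CPM against 54.6 to 65.1 CPM in the other groups, and Mtrex is lowest in clone 1.

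Averaged over the clones, all 3 subunit genes passed the test in the lower direction against wild type, where 19.9% of the 15297 genes tested were called lower and 36.1% were called in either direction. The mean difference of the 3 clones was -0.62 for Zcchc8 (SE 0.06, edgeR adjusted p = 2.018e-08), -0.27 for Mtrex (SE 0.04, edgeR adjusted p = 2.886e-05) and -0.20 for Rbm7 (SE 0.07, edgeR adjusted p = 0.0179). With 1 value per cell line, 3 clones against 2 control lines, none of the 3 passed: the edgeR adjusted p was 0.491 for Zcchc8, 0.279 for Mtrex and 0.58 for Rbm7. The clone average of Zcchc8 combined a large fall in clone 2 with small differences in the other two.

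Rbm7, the RNA-binding subunit, differed least between the groups. Its wild-type level was 72.1, 67.2, 61.7 and 60.8 CPM. Btbd7 KO had 60.6, 59.6, 63.8 and 55.2 CPM. Clone 1 had 59.7, 65.9, 57.2 and 58.3 CPM, and clone 3 had 58.9, 55.4, 48.4 and 63.3 CPM. Clone 2, at 52.8, 55.2, 56.7 and 51.3 CPM, was the only group below all wild-type libraries. Clone 2 was lower than wild type by 0.28 (SE 0.08, edgeR adjusted p = 0.01). Clones 1 and 3 did not pass, at -0.12 and -0.21 (edgeR adjusted p = 0.283 and 0.058), nor did Btbd7 KO, at -0.13 (0.299).

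Against Btbd7 KO the mean of the clones was -0.07 for Rbm7 and did not pass (95% interval -0.21 to 0.07, edgeR adjusted p = 0.441). The joint test of the clones did not pass (edgeR adjusted p = 0.35). Without wild-type replicate 1, which held the highest Rbm7 level, the mean of the clones minus wild type was -0.13 and no longer passed (edgeR adjusted p = 0.125). The clone 2 call was lost when gene totals were used without TMM factors (-0.19, edgeR adjusted p = 0.0696).

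Mtrex, the helicase subunit, was lower in clones 1 and 3, the clones in which Zcchc8 RNA was closest to wild type. Its wild-type level was 135, 158, 149 and 143 CPM, and Btbd7 KO had 145, 144, 144 and 138 CPM. Clone 1 had 106, 106, 112 and 106 CPM, and clone 3 had 122, 118, 120 and 122 CPM. All 8 of these libraries lay below all 8 libraries of wild type and Btbd7 KO. Clone 2, at 140, 134, 130 and 144 CPM, overlapped both control groups.

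Mtrex fell by 0.44 on the log2 scale in clone 1 (SE 0.06, edgeR adjusted p = 1.084e-06) and by 0.28 in clone 3 (SE 0.06, edgeR adjusted p = 0.000362). Clone 2 did not pass, at -0.10 (95% interval -0.21 to 0.02, edgeR adjusted p = 0.194). The difference between the clones was itself tested. The joint test, which 28.5% of genes passed, was passed by Mtrex (edgeR adjusted p = 0.000122). Clone 2 lay above clone 1 by 0.35 (SE 0.06, edgeR adjusted p = 4.801e-05), where 11.3% of genes were called higher. Clone 3 lay below clone 2 by 0.19 (edgeR adjusted p = 0.0186, with 9.39% of genes called lower), a call that was lost without clone 2 replicate 4 (0.0734), without the filter on low counts (0.123) and at equal depth (0.0583). Clone 3 minus clone 1 was 0.16 and did not pass (edgeR adjusted p = 0.0638). Against Btbd7 KO the mean of the clones was -0.24 (SE 0.05, edgeR adjusted p = 0.000126), where 22.2% of genes were called lower. Btbd7 KO minus wild type was -0.04 and did not pass (edgeR adjusted p = 0.717).

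The order of the 3 clones for Mtrex was shared by its divergent neighbour, while Btbd7 KO lay above wild type for Dhx29 only. Dhx29 had a mean of 60.1 ± 3.87 CPM in wild type (SD, n = 4) and 69.0 ± 3.38 CPM in Btbd7 KO. It stood at 38.6 ± 4.90 CPM in clone 1, 53.8 ± 3.79 CPM in clone 2 and 48.9 ± 2.50 CPM in clone 3. Dhx29 fell by 0.64 in clone 1 (SE 0.09, edgeR adjusted p = 1.922e-06) and by 0.30 in clone 3 (SE 0.08, edgeR adjusted p = 0.00728), and clone 2 did not pass, at -0.16 (0.149). In both genes clone 1 was therefore lowest and clone 2 closest to wild type among the clones.

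**Figure D2:**
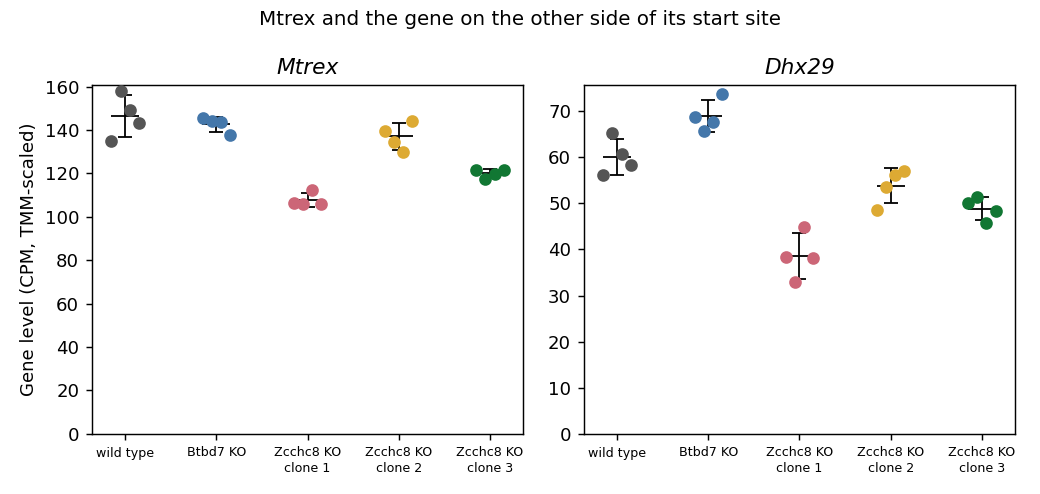
Gene level (CPM, TMM-scaled, linear axis from 0) of Mtrex and of Dhx29, whose start sites lie 56 bases apart, in each of the 20 libraries. Points are libraries, long ticks the group means and bars 1 SD (n = 4). In both panels clone 1 is the lowest group, at a mean of 108 CPM for Mtrex and 38.6 CPM for Dhx29, and clone 3 is the next.

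Other genes around Mtrex moved the same way in those clones. Within 1 Mb of Mtrex 10 other genes were tested, Dhx29 included. Their median log2 difference was -0.58 in clone 1, with 6 called lower, and -0.40 in clone 3, with 6 called lower. In clone 2 the median was -0.12 with 1 called lower, and in Btbd7 KO it was -0.03 with 1 called lower. Of all genes tested, 19.1%, 16.2% and 15.3% were called lower in clones 1, 2 and 3. On chromosome 13 it was 245, 64 and 180 of 666. Within 1 Mb of Zcchc8 (62 genes) the medians were 0.05, 0.25 and 0.16, with 17 called higher and 3 lower in clone 2. Within 1 Mb of Rbm7 (7 genes) they were -0.01, 0.13 and 0.11. Il6st, the shared receptor subunit of interleukin 6 family cytokines, was at -0.55 in clone 1 and -0.35 in clone 3. Plpp1, a lipid phosphatase whose end overlaps that of Mtrex, was at -1.20 and -0.83. Both passed in these 2 clones (edgeR adjusted p = 3.791e-08 and 2.845e-05 for Il6st, 1.24e-05 and 0.000674 for Plpp1), and both were named after their values were seen. Il6st was also the gene called lower in Btbd7 KO, at -0.23 (edgeR adjusted p = 0.00433).

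Over the whole of chromosome 13 the median of 666 tested genes was -0.21 in clone 1, -0.13 in clone 3, 0.09 in clone 2 and -0.07 in Btbd7 KO. Medians of the other 19 chromosomes ran from -0.27 (chromosome 3) to 0.28 (chromosome 2) in clone 1 and from -0.23 (chromosome 15) to 0.10 (chromosome 7) in clone 3. Chromosomes 5 and 9, which hold Zcchc8 and Rbm7, had medians between -0.03 and 0.08 in every edited line. Krt14, a basal keratin, also had its lowest means in clones 1 and 3, at 187 and 204 CPM, against 287 CPM in clone 2, 319 CPM in wild type and 412 CPM in Btbd7 KO. The basal list of 4 markers summed to 164 to 214 CPM in clone 1 and 194 to 225 CPM in clone 3, against 277 to 346 CPM in clone 2, 253 to 398 CPM in wild type and 400.3 to 421 CPM in Btbd7 KO. Most of each sum was Krt14, with Krt5 at most 1.37 CPM and Acta2 at 0 in wild type. Trp63, the basal transcription factor p63, did not follow Krt14: it averaged 2.43 CPM in wild type, 0.571 in Btbd7 KO, 1.47 in clone 1, 20.7 in clone 2 and 4.00 in clone 3. The part of the chromosome-wide differences and of the basal markers in the Mtrex result was not tested. These windows were chosen after the values were seen and carry no test of their own.

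**Figure D3:**
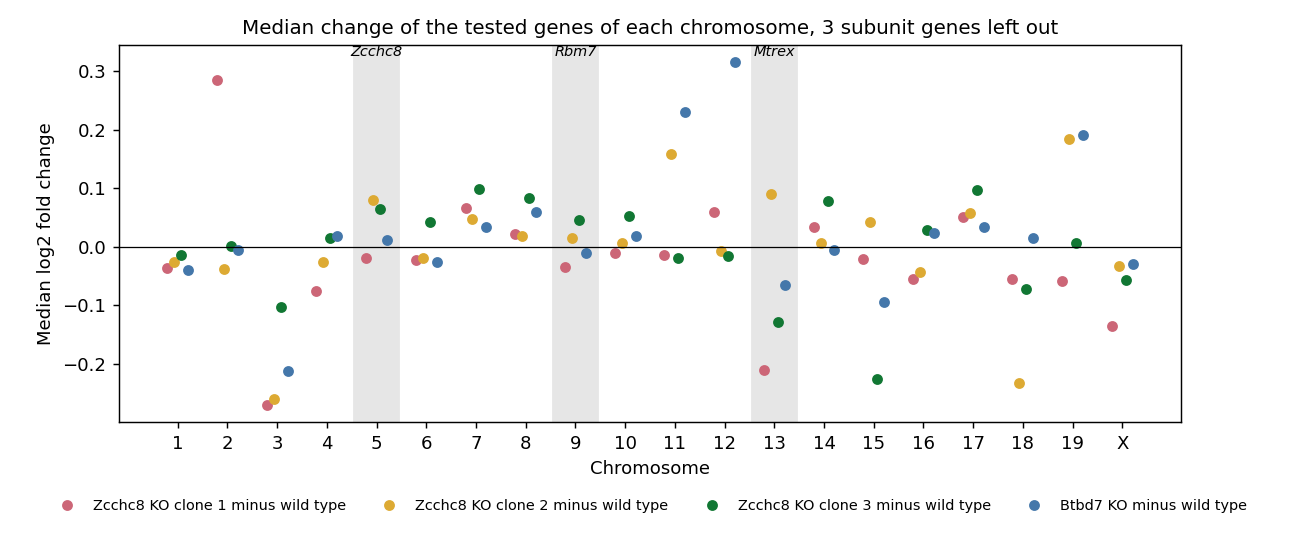
Median log2 fold change against wild type of the tested genes on each chromosome, the 3 subunit genes left out, for each of the 4 edited lines (points). Grey bands mark the chromosomes of Zcchc8, Rbm7 and Mtrex. Chromosome 13 has the next to lowest median in clones 1 and 3, at -0.21 and -0.13, and a median of 0.09 in clone 2.

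Per kilobase of exon, Mtrex was the most abundant of the 3 genes in every group. The length is the union of all annotated exons of a gene, those of non-coding transcripts included. Of the annotated transcripts 4 of 9 are protein coding for Zcchc8, 2 of 4 for Rbm7 and 1 of 6 for Mtrex. The order of the genes depends on these lengths, and which transcripts the cells made was not tested. In wild type it stood at 22.9 ± 1.52 CPM per kb (SD, n = 4), Rbm7 at 13.2 ± 1.06 and Zcchc8 at 12.4 ± 0.556. The wild-type ranges of Rbm7, 12.3 to 14.6, and Zcchc8, 11.7 to 12.98, overlapped. The level of Mtrex per length was 1.84 times that of Zcchc8 in wild type, 1.88 in Btbd7 KO, 1.47 in clone 1 and 1.81 in clone 3. In clone 2 it was 4.82 times. Rbm7 per length was 2.46 times Zcchc8 in clone 2 and 1.02 to 1.10 times in the other groups.

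PROMPT regions as a class were higher in the Zcchc8 KO clones, and among the 3 subunit genes that of Rbm7 passed the test. For the mean of the clones minus wild type 39.2% of 17617 tested regions were called higher and 3.85% lower, with a median log2 difference of 0.43 over all regions. With factors from the PROMPT table itself the median was 0.02, and 5054 regions were called higher and 3665 lower of 16765, against 6914 and 679. All 3 subunit regions passed the filter on low counts. For 1 region of 3, that of Rbm7, the call was higher, so the share is near the background.

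Rbm7's PROMPT region had 22, 3 and 19 counts in wild-type replicates 2 to 4, which is 1.27, 0.224 and 1.11 CPM. Btbd7 KO had 8, 3, 3 and 5 counts, or 0.482, 0.199, 0.372 and 0.422 CPM. Clone 1 had 18, 25, 35 and 44 counts, or 2.34, 3.39, 5.07 and 5.60 CPM. Every one of these 4 values exceeded every control library. Clone 2 had 19, 58, 55 and 39 counts, or 2.60, 4.13, 3.14 and 2.69 CPM. Clone 3 had 70, 36, 29 and 85 counts, or 4.98, 4.52, 3.70 and 5.79 CPM. Each of the 12 knockout libraries was therefore above each of the 7 control libraries in CPM.

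Against wild type the Rbm7 PROMPT rose by 2.13 on the log2 scale in the mean of the clones (SE 0.34, edgeR adjusted p = 4.338e-07). In clones 1, 2 and 3 the shares of regions called higher were 38.7%, 35.1% and 36.4%. It rose by 2.17 in clone 1 (SE 0.39, edgeR adjusted p = 3.76e-06), 1.80 in clone 2 (SE 0.38, 8.27e-05) and 2.40 in clone 3 (SE 0.38, 3.226e-07). Against Btbd7 KO the mean of the clones was higher by 3.39 (SE 0.37, edgeR adjusted p = 6.761e-12), where 45.1% of regions were called higher. The clones did not pass the joint test, which 10.9% of regions passed (edgeR adjusted p = 0.422). Summed over libraries, the level was 0.922 CPM in wild type (exact 95% Poisson interval 0.67 to 1.24) and 0.369 CPM in Btbd7 KO (0.222 to 0.576), against 4.09 (3.40 to 4.88), 3.21 (2.74 to 3.72) and 4.94 (4.31 to 5.64) CPM in clones 1, 2 and 3. These intervals cover counting error only.

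Btbd7 KO minus wild type was -1.26 for the Rbm7 PROMPT and did not pass (SE 0.49, edgeR adjusted p = 0.153), in a comparison where 2.97% of regions were called. It passed without wild-type replicate 3, the wild-type library with 3 counts (-1.67, edgeR adjusted p = 0.0381). The rise in the clones kept its call with PROMPT-table factors, at 1.75 (edgeR adjusted p = 2.329e-05) for their mean. Among all regions the rise of Rbm7 ranked at the 79.5th percentile, so larger rises were common.

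**Figure D4:**
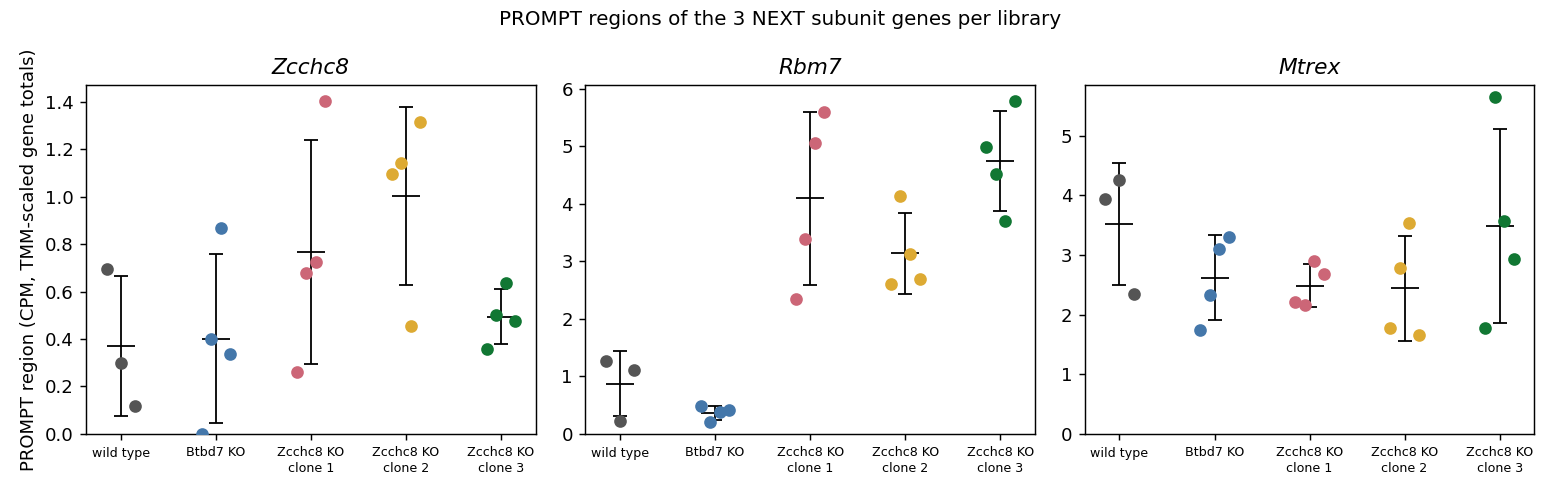
Level of the PROMPT regions of Zcchc8, Rbm7 and Mtrex (CPM of TMM-scaled gene totals, linear axis from 0) in each of 19 libraries. Points are libraries, long ticks the group means and bars 1 SD (n = 4, wild type n = 3). All 12 Zcchc8 KO libraries lie above all 7 controls in the Rbm7 panel, and the groups overlap in the Mtrex panel.

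The gene on the other side of the Rbm7 promoter rose with this region. Gm5617 had a mean of 0.27 ± 0.272 CPM in wild type (SD, n = 4) and 0.169 ± 0.166 CPM in Btbd7 KO. Clones 1, 2 and 3 had 1.30 ± 0.631, 0.912 ± 0.215 and 1.62 ± 0.438 CPM. The gene rose by 2.13 in the mean of the clones (SE 0.61, edgeR adjusted p = 0.00741), by 2.19 in clone 1 (0.0167) and by 2.52 in clone 3 (0.00652), while clone 2, at 1.68, did not pass (0.0651). Gm5617 reads in the direction of an Rbm7 PROMPT and starts 143 bases upstream, so 1 read could count for both. Its counts were below those of the Rbm7 PROMPT in 19 of 19 libraries. The extent of a PROMPT region is not given in the sources used here, and how many reads the 2 features share was not tested. The PROMPT region of Gm5617, on the Rbm7 side, had 24.4 ± 2.68 CPM in wild type (SD, n = 3) and was lower by 0.30 in the mean of the clones (SE 0.11, edgeR adjusted p = 0.0295). It did not pass in any single clone (edgeR adjusted p = 0.0527, 0.058 and 0.173). Btbd7 KO was at -0.21 against wild type and did not pass (edgeR adjusted p = 0.462). Against Btbd7 KO the mean of the clones was -0.08 and did not pass (edgeR adjusted p = 0.539). A PROMPT of Gm5617 that runs further than 143 bases lies inside Rbm7 and in its direction. How many of these reads come from the Rbm7 gene was not tested.

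The PROMPT of Zcchc8 itself was near the limit of detection. Its counts were 12, 4 and 2 in wild type, 0, 6, 7 and 4 in Btbd7 KO, 2, 5, 5 and 11 in clone 1, 8, 16, 8 and 19 in clone 2, and 5, 4, 5 and 7 in clone 3. The 0 in Btbd7 KO replicate 1 allows a level of up to 0.181 CPM (3 counts). Clone 2 was the highest group, at 1.00 ± 0.375 CPM (SD, n = 4), against 0.37 ± 0.295 CPM in wild type (SD, n = 3), and overlapped it. The difference was 0.92 in the mean of the clones (95% interval -0.42 to 2.27, edgeR adjusted p = 0.287) and 1.38 in clone 2 (-0.13 to 2.90, 0.151). Both moved with single wild-type libraries: the mean was 0.51 without wild-type replicate 4 and 1.78 without replicate 2, and clone 2 was 0.98 and 2.24, none of them called (lowest edgeR adjusted p = 0.0601). A change of the size seen in Rbm7, 2.13 in the mean and 1.80 in clone 2, lies inside both intervals. For these 2 comparisons none could be shown or set aside at this depth. In clone 3 the difference was 0.36 (95% interval -1.23 to 1.96, edgeR adjusted p = 0.767), and the Rbm7 rise there, 2.40, lies above that interval. The clone 3 value was -0.06 without wild-type replicate 4.

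The Mtrex PROMPT region was not called in any clone. It had 3.93, 4.26 and 2.35 CPM in wild type and 1.75, 2.32, 3.10 and 3.29 CPM in Btbd7 KO. Clones 1, 2 and 3 ranged from 2.17 to 2.89, from 1.66 to 3.54 and from 1.78 to 5.65 CPM, all overlapping wild type. The mean of the clones differed from wild type by -0.34 (95% interval -0.89 to 0.20, edgeR adjusted p = 0.335) and from Btbd7 KO by 0.10 (-0.43 to 0.63, 0.779). Against wild type the upper bound of 0.20 lies below the median of all tested regions, 0.43, whereas against Btbd7 KO the upper bound of 0.63 lies above the median, 0.51. With factors from the PROMPT table the difference from wild type was -0.72 and passed (edgeR adjusted p = 0.0209). A PROMPT of Mtrex that runs further than 56 bases lies inside Dhx29 and in its direction, and how many of these reads come from Dhx29 was not tested.

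**Figure D5:**
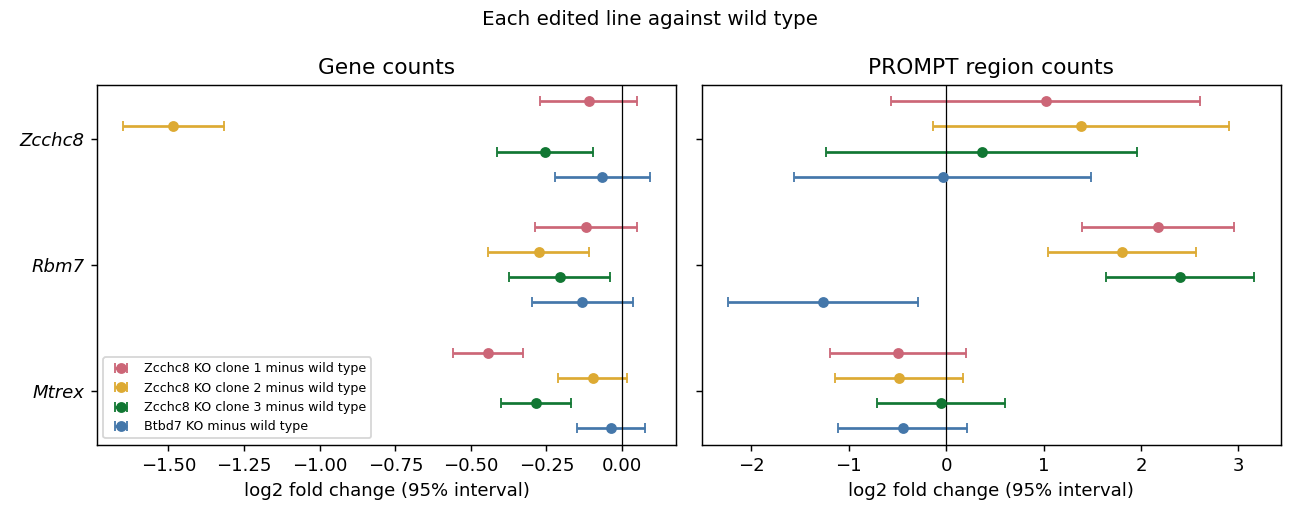
Log2 fold change against wild type with its 95% interval (edgeR) for gene counts (left) and PROMPT region counts (right) of the 3 subunit genes in each edited line. The 2 axes differ in scale. The Zcchc8 gene in clone 2, at -1.48, and the Rbm7 PROMPT in all 3 clones, at 1.80 to 2.40, lie furthest from 0.

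The PROMPT count relative to the gene count of the same library is free of library scaling. For Rbm7 this log2 ratio averaged -6.44 in wild type and -7.25 in Btbd7 KO, against -3.93, -4.11 and -3.57 in clones 1, 2 and 3. Every library of each clone was above every library of both controls. The differences from wild type were 2.50, 2.33 and 2.86, each at the smallest two-sided p that 4 against 3 libraries allow in an exact permutation test (0.0571). Those from Btbd7 KO were 3.31, 3.14 and 3.68, at the smallest that 4 against 4 allow (0.0286). After Benjamini-Hochberg adjustment over the 21 exact tests of this family none passed (adjusted p = 0.15). For Zcchc8 the ratio was higher in clone 2 than in every control library, by 3.05 against wild type, with its gene count lower and its PROMPT count not called. The ratio of Mtrex overlapped between each clone and the controls in all of its comparisons.

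Of the wider exosome pathway, 25 listed genes were tested, adaptors, cap-binding partners, polymerases and exosome subunits. For the mean of the clones minus wild type, 8 fell, 2 rose and 15 did not pass, with a median log2 difference of -0.04 against -0.01 over all genes tested. The share called, 10 of 25, stands beside 36.1% of all genes, of which 16.2% were higher and 19.9% lower. In clones 1, 2 and 3 the counts were 7, 8 and 5 lower and 3, 1 and 3 higher, where 35.8%, 32.3% and 29.3% of all genes were called. In Btbd7 KO 1 was lower and 3 were higher, where 15.7% of all genes were called. Of the list, 5 genes passed in the same direction in the mean and in all 3 clones, 4 lower and 1 higher, where 5.82% of all genes passed as lower and 7.64% as higher by the same rule.

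Dis3, a catalytic subunit of the exosome, fell by 0.31 in the mean of the clones (SE 0.05, edgeR adjusted p = 3.643e-05). Exosc1 and Exosc8, subunits of its core, fell by 0.32 and 0.32 (edgeR adjusted p = 0.000585 and 0.00153). Zcchc7, the TRAMP partner of MTREX, fell by 0.27 (edgeR adjusted p = 0.0016). Srrt, which encodes the cap-binding partner ARS2, rose by 0.49 (SE 0.05, edgeR adjusted p = 7.797e-09). In Btbd7 KO Exosc1 was higher by 0.32 (edgeR adjusted p = 0.00864) and the other 4 did not pass. With Btbd7 KO as the control, the mean of the clones was -0.19 for Exosc8 and did not pass (edgeR adjusted p = 0.0562). Dis3, Exosc1, Zcchc7 and Srrt passed there in the same direction as against wild type. Zfc3h1, the PAXT adaptor that also uses MTREX, was at 0.04 against wild type and did not pass (SE 0.05, edgeR adjusted p = 0.554). It was lower in Btbd7 KO than in wild type, at -0.25 (edgeR adjusted p = 0.00644). The mean of the clones was higher than Btbd7 KO by 0.30 for this gene (SE 0.05, edgeR adjusted p = 6.404e-05).

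The PROMPT regions of the listed pathway genes were also tested. The set differed slightly: Exosc6 was tested for its region but not its gene counts, and Exosc2 for its gene counts but not its region. In the mean of the clones 16 of 25 tested regions rose and 2 fell, beside 39.2% and 3.85% of all regions, and their median was 0.66 against 0.43. In Btbd7 KO 1 of 25 passed, in the lower direction, where 2.97% of all regions were called. The region of Zc3h18, a link between the cap-binding complex and NEXT, rose by 2.51 (SE 0.24, edgeR adjusted p = 3.941e-14). That of Zcchc7 rose by 3.61 (SE 0.55, edgeR adjusted p = 1.052e-07), and that of Zfc3h1 by 0.96 (SE 0.16, edgeR adjusted p = 1.255e-06). Exosc6, at -0.60 (SE 0.08, edgeR adjusted p = 7.58e-10), and Exosc3, at -0.69 (SE 0.26, 0.0232), were the 2 that fell. The Exosc3 region did not pass in any single clone (edgeR adjusted p = 0.117, 0.0545 and 0.0727). It was as low in Btbd7 KO, at -0.74 against wild type (not passed, 0.204). The clones did not differ from Btbd7 KO there (0.05, edgeR adjusted p = 0.886), whereas for Exosc6 they did (-0.72, 4.399e-14).

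The genes whose levels most resembled each subunit gene across the 20 libraries were picked by that likeness, so a shared order of lines follows from the choice. By Pearson's r of log2(CPM + 0.5) among 10776 genes, Fam210a (0.96), Ly75 (0.96) and Socs6 (0.96) were closest to Zcchc8, each lowest in clone 2. Fam210a, for example, averaged 136 CPM in wild type and 90.2 CPM in clone 2. Cltb (0.94), Ddb1 (0.94) and Slc16a6 (0.93) were closest to Mtrex, each lowest in clone 1 and next lowest in clone 3. Ddb1, a subunit of a DNA damage-binding ubiquitin ligase, averaged 1477 CPM in wild type, 1096 in clone 1, 1408 in clone 2 and 1224 in clone 3. Acat2 (0.82), Spty2d1 (0.80) and Atrn (0.80) were closest to Rbm7, and Atrn, for example, averaged 143 CPM in wild type and 98.4 CPM in clone 2. Acat2 had the highest r with Rbm7, but the order of its line means was not the same. It averaged 30.7 CPM in wild type and 31.0 in Btbd7 KO, and was lowest in clone 3, at 24.05, with clone 2 at 24.6. The libraries fall into 5 lines and share their scaling, so r describes this order of lines and carries no p.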

How the data were processed

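Per the labels' protocols, SIMS RNA was isolated by TRIzol and column purification, and a stranded total RNA kit from Illumina was used for the libraries. STAR 2.7.3a and FastQC are named in the submitters' processing notes. The counter, its strand setting, the genome build and the extent of a PROMPT region are not given in the sources used here, so reads of overlapping genes on opposite strands may not be separated. The authors deposited raw counts as whole numbers per gene and per PROMPT region. Gene positions and exonic lengths came from GENCODE M21 on GRCm38, where 55230 of 55471 gene identifiers matched without their version, and start site sequences from RefSeq for 3 of 3 genes.

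Groups follow the titles in the labels. The quasi-likelihood test of edgeR 4.0.16 (R 4.3.3) was run once on each table with all 5 groups, on features kept by filterByExpr (minimum count 10). Library sizes and TMM factors of the whole gene table scaled both tables, so that a change of all PROMPT regions was not centred on 0. TMM factors were first taken from genes past the filter, and the whole table was used after results had been seen. Benjamini-Hochberg adjusted p-values under 0.05 over all features were called. Standard errors were derived from each quasi-likelihood test. Ratios used a pseudocount of 0.5 and two-sided exact permutation tests (scipy 1.17.1). The pipeline was tested on simulated data.

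The genes always named were the 3 subunit genes and Btbd7. Genes overlapping the 5 kb upstream of a subunit gene, the 3 genes most like each by Pearson's r (mean of at least 50 counts), and pathway genes called in the mean and in each clone in 1 direction were also named. Other pathway genes, Il6st and Plpp1 were chosen after their values were seen. The members and lists were chosen with earlier results of these data known. Alternatives were DESeq2 1.42.0, no filter, no TMM factors, PROMPT-table factors, only the compared groups, a replicate block, equal depth, cell lines as replicates, each library left out and a pseudocount of 1. Cell lines were taken as replicates for gene counts only, so no PROMPT result was tested that way. No library was counted as a duplicate, since all 30 replicate pairs within groups differed beyond sampling noise (lowest chi-square per degree of freedom 2.89).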

Additional observations from a re-analysis of the deposited data

Results flagged for a closer look

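Mtrex in clone 1 had 1 library apart from the other 3. Replicate 3 stood at 112 CPM (112.3) against 106.0 to 106.4 CPM, a gap of 0.937 of the range of the group. It was the only such case among 39 groups of 4 libraries examined, where chance gives about 1 in 20. That library was the closest of its group to wild type, so the lower level of Mtrex in clone 1 does not rest on it.

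The differences from wild type were not the same in the 3 Zcchc8 KO clones for 2 of the subunit genes. Such differences were common, since 28.5% of the 15297 genes tested passed the joint test of the clones. This test gave an edgeR adjusted p of 3.808e-12 for the Zcchc8 gene, which was low in clone 2. For the Mtrex gene, which was low in clones 1 and 3, it gave 0.0001223.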

How the results depend on the processing

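Of 454 alternative values for 81 results, each library left out apart, 427 kept their direction and their side of the threshold, and 63 results did so under every such alternative. With cell lines as replicates, which leaves 3 clones against 2 controls, the gene values were -0.47 (Zcchc8), -0.13 (Rbm7) and -0.26 (Mtrex), none past the threshold (edgeR adjusted p = 0.491, 0.58 and 0.279). Without TMM factors Rbm7 gene calls were lost in the mean of the clones (-0.12) and clone 2 (-0.19), the Zcchc8 gene call was lost in clone 3 (-0.18), and Rbm7 in the mean of the clones minus Btbd7 KO was 0.0031. At equal depth the Rbm7 mean (-0.17), Zcchc8 in clone 3 (-0.20) and Mtrex in clone 3 minus clone 2 (-0.16) did not pass. Without the filter Zcchc8 in clone 3 (-0.26) and Mtrex in clone 3 minus clone 2 (-0.19) did not pass. With only the compared groups Zcchc8 in clone 3 (-0.24) did not pass and Mtrex in clone 3 minus clone 1 (0.16, edgeR adjusted p = 0.0445) did. With PROMPT-table factors the Mtrex PROMPT passed as lower in the mean (-0.72), clone 1 (-0.94) and clone 2 (-0.81). The same factors turned the sign of uncalled PROMPT values: Zcchc8 in clone 3 (-0.0038) and in Btbd7 KO (0.0027), and Mtrex in the clones minus Btbd7 KO (-0.33). Uncalled Mtrex PROMPT values also turned sign in clone 3 without TMM factors (0.021) and in clone 2 minus clone 1 with DESeq2 (-0.018). The cause of these changes was not tested. TMM factors from genes past the filter, an alternative added after seeing the data, changed no call or direction.

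For same-numbered libraries of different groups, the correlation of their deviations ran from -0.20 to 0.33 over 40 pairs, with 5 above 0.1. The highest was replicate 2 of wild type and clone 3. Differently numbered pairs are not given beside them, so these values do not settle whether numbers mark shared batches. The fit with a replicate block gave -0.62 for Zcchc8, -0.20 for Rbm7 and -0.27 for Mtrex in the gene mean and 2.22 for the Rbm7 PROMPT. It changed no call, and it turned the sign of 3 uncalled PROMPT values: Mtrex in clone 3 (0.11), Zcchc8 in Btbd7 KO (0.14) and Mtrex in clone 2 minus clone 1 (-0.079).

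With each library left out in turn, gene values ran from -0.22 to -0.13 for the Rbm7 mean, -0.30 to -0.22 for Zcchc8 in clone 3, -0.27 to -0.14 for Rbm7 in clone 3, -0.066 to 0.0024 for Mtrex in Btbd7 KO, 0.15 to 0.17 for Mtrex in clone 3 minus clone 1, and -0.21 to -0.16 in clone 3 minus clone 2. Rbm7 in clone 3 passed without wild-type replicate 4 (edgeR adjusted p = 0.0489) and without clone 3 replicate 4 (0.0252), and Mtrex in clone 3 minus clone 1 passed without wild-type replicate 2 (0.0493). PROMPT values ran from -0.060 to 1.22 for Zcchc8 in clone 3, -0.36 to 0.20 for Mtrex in clone 3, -0.63 to 0.82 for Zcchc8 in Btbd7 KO, -1.67 to -0.91 for Rbm7 in Btbd7 KO, -0.058 to 0.24 for Mtrex in the clones minus Btbd7 KO, and -0.25 to 0.16 for Mtrex in clone 2 minus clone 1. PROMPT to gene ratios ran from -0.88 to 0.73 for Zcchc8 in Btbd7 KO, -0.19 to 0.21 for Mtrex in clone 1, -0.039 to 0.53 for Mtrex in clone 3, and -0.29 to 0.12 for Mtrex in clone 2 minus Btbd7 KO. The other results kept direction and side of the threshold. Counts of 0 to 19 limit what can be said of the Zcchc8 PROMPT.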
